A study of Mus musculus with 12 samples.

Results

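The comparison asked whether 24 h of starvation altered gene expression differently in the livers of Lamp2A knock-out (KO) mice than in those of wild-type (WT) mice. For each gene, the starved minus fed difference in WT mice was subtracted from the starved minus fed difference in KO mice. This difference of differences, the interaction, is on the log2 scale, and a negative value means that the response of KO livers lay below that of WT livers. All 12 arrays of the series entered it, 1 liver per array, and 20719 genes with 1 row per symbol were tested.

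Each of the 4 groups held 3 mice: KO starved (S5, S6 and S7), KO fed (F5, F6 and F8), WT starved (S3, S4 and 3) and WT fed (F1, F2 and F4), and values are listed in that order of mice throughout. KO mice came from crosses of C57BL/6 Albumin-Cre mice with mice whose Lamp2 exon encoding the A isoform lay between loxP sites, and the labels describe them as deficient in chaperone-mediated autophagy. Albumin-Cre is active in hepatocytes, so other cells of the liver keep Lamp2A. Several lines were bred at the start to limit inbreeding. All mice ate standard chow, and starved mice had free access to water. The labels used here give no age or sex and do not say whether WT mice carried loxP sites or Cre.

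Lamp2A is the lysosomal membrane receptor of chaperone-mediated autophagy, in which Hspa8 delivers single cytosolic proteins to the lysosome, and in liver this route is active in long starvation. A starving liver turns to fatty acid oxidation and glucose output under PPAR-alpha, glucocorticoid and FOXO control, and shuts down lipid and sterol synthesis. Hepatocytes also make the acute phase proteins, plasma proteins whose genes are turned on by interleukin-6 and interleukin-1 through STAT3, NF-kB and C/EBP factors.

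The Lamp2 row read 12.33, 12.56 and 12.60 in KO starved, 12.51, 12.81 and 12.49 in KO fed, 12.68, 12.49 and 12.54 in WT starved and 12.61, 12.24 and 12.25 in WT fed livers. Its interaction was -0.31 ± 0.19 (SE). Which exons this row covers is not stated, so its value checks neither the loss of the A exon nor the labels. The 6 hepatocyte markers averaged 13.39 to 13.64 over the KO starved arrays, 13.20 to 13.60 over the KO fed, 13.50 to 13.67 over the WT starved and 13.17 to 13.64 over the WT fed arrays. The interquartile range of an array's values ran from 2.47 to 2.97, and 1 of 3 fed and 2 of 3 starved arrays of each genotype lay in the wider set of 6.

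No gene passed an adjusted p of 0.05 in the interaction: limma called 0 of 20719 genes (0%). The smallest adjusted p was 0.409, for Lcn2, and all others rounded to 1. At an unadjusted p under 0.05 there were 422 genes (2.04%), 191 with a higher response in KO (0.922%) and 231 with a lower one (1.11%). The total reached 829 when WT fed replicate F1 was left out and 743 when WT starved replicate 3 was. With no interaction in any gene, such a cut gives on average a share of 0.05 of the genes, and 2.04% lies below that. Counts of list members at this cut are to be read beside the 2.04%. The number of calls depended on how arrays were weighted. With limma's array weights, which ranged from 0.21 for WT starved replicate 3 to 6.14 for KO fed replicate F5, 106 genes were called, and without WT starved replicate S4 1 gene was called, Lcn2. The median SE of an interaction was 0.212, and the 95% interval lay within 2-fold either way for 17415 genes (84.1%). An estimated interaction of at least 2-fold was seen for 92 genes (0.444%).

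The response itself was largely shared. Starvation changed 212 genes in KO livers (1.02%; 101 higher and 111 lower) and 292 in WT livers (1.41%; 137 higher and 155 lower). These counts moved with single mice: omitting KO fed replicate F5 left 45 KO calls, omitting WT starved replicate S4 left 64 WT calls, and omitting WT starved replicate 3 gave 344 KO and 659 WT calls. Of the 292 genes called in WT, 288 had the same sign in KO (98.6%), 118 were also called there (40.4%), and the KO response was a median 0.763 of the WT response. Of the 212 genes called in KO, 212 had the same sign in WT, 118 were called there (55.7%), and the WT response was a median 0.828 of the KO response. Responses chosen as large in one genotype tend to be smaller in the other by the choice alone. Across all genes the KO and WT responses had a Pearson r of 0.729 and a Spearman rho of 0.571, as a description over genes of the same 12 arrays, which are not independent. Pearson r was 0.568 within the 6 wide and 0.406 within the 6 narrow arrays. The part of array spread in the shared response was not tested. The 4 WT-called genes with the opposite sign in KO were Lcn2, Fgl1, Arl13b and Spc25; Arl13b, a small GTPase of the primary cilium, was singled out after its values were seen (KO response -0.05, WT response 0.64). The KO minus WT differences within a feeding state gave 0 calls in starved and 0 in fed livers by limma, with 744 (3.59%) and 603 (2.91%) genes at an unadjusted p under 0.05. Both shares also lay below the 0.05 that such a cut gives on average with no difference.

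**Figure D1:**
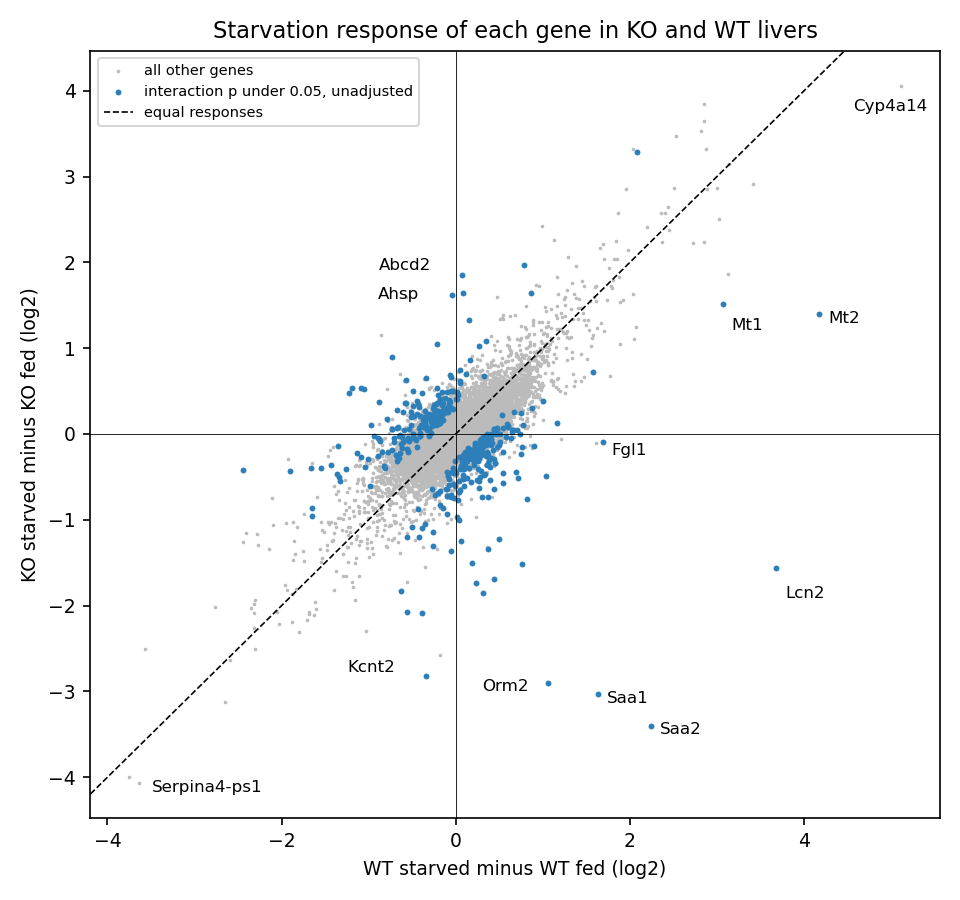
Starvation response of each of 20719 genes in KO livers (vertical axis, log2 KO starved minus KO fed) against WT livers (horizontal axis, log2 WT starved minus WT fed); blue points are the 422 genes with an unadjusted interaction p under 0.05, and the dashed line marks equal responses. Most large responses lie along the line, while Lcn2, Saa1, Saa2 and Orm2 lie below 0 in KO and above 0 in WT.

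The acute phase genes had the lowest median interaction of the 53 gene and marker lists. Of the 30 measured, 0 passed the adjusted test, 29 had a negative interaction, and 10 had an unadjusted p under 0.05, all 10 with a negative interaction. The list's median was -0.67, against -0.02 over all genes, of which 11120 of 20719 were negative. Within groups, the list's median level varied between mice with an SD of 0.55. All 30 genes were read in the same 12 mice, so their signs are not separate readings. The same holds for the sign counts of every other list. Its median KO response was -0.21 and its median WT response 0.46. Seen the other way, its median KO minus WT difference was -0.32 in starved and 0.28 in fed livers. The list's array means ran from 10.65 to 11.08 in KO starved, 11.12 to 11.89 in KO fed, 11.02 to 12.05 in WT starved and 10.70 to 11.11 in WT fed livers. In KO livers the starved means therefore all lay below the fed means, whereas the starved and fed means overlapped in WT livers.

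Lcn2, lipocalin 2, is a secreted protein that binds bacterial iron carriers. It read 9.33, 9.50 and 9.29 in KO starved, 10.77, 11.71 and 10.32 in KO fed, 12.49, 10.64 and 13.23 in WT starved and 8.35, 8.70 and 8.27 in WT fed livers. Starved and fed livers did not overlap in either genotype, with starved below fed in KO and above fed in WT. The interaction was -5.24 ± 0.75 (SE; 95% interval -6.89 to -3.59; limma adjusted p = 0.409). Lcn2 rose with starvation in WT livers by 3.68 ± 0.53 (adjusted p = 0.00932), while its KO response was -1.56 ± 0.53 (adjusted p = 0.284). Without WT starved replicate S4, the lowest of its group, the interaction was -5.98 with an adjusted p of 0.00237, and with array weights it was -4.77 with an adjusted p of 0.0092. Leaving out the lowest WT starved mouse necessarily enlarges the difference, and no other omission of a single mouse called Lcn2. Array weights also raised the KO response calls over all genes from 212 to 7639. Over all 26 alternatives the Lcn2 interaction ran from -5.98 to -4.68.

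Such opposite separation was less frequent than separation in the same direction. In groups this small, chance order of the mice can also give opposite separation. The count of such genes was not tested against chance, so it lends no weight to the Lcn2 pattern. Starved and fed livers lay apart in both genotypes in opposite directions for 32 genes (0.154%), against 1087 (5.25%) in the same direction, and among the opposite ones 19 (0.0917%) had KO starved below KO fed and WT starved above WT fed, as Lcn2 did, while 13 (0.0627%) had the reverse order.

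Orm2, an orosomucoid carrier of lipophilic molecules in plasma, read 9.09, 8.87 and 9.11 in KO starved, 12.05, 12.68 and 11.03 in KO fed, 10.99, 9.57 and 13.18 in WT starved and 10.11, 10.26 and 10.20 in WT fed livers. KO starved livers were lowest, all below KO fed livers, and the WT starved mice spread around the WT fed ones. Its interaction was -3.95 ± 0.98. Orm1, its paralog, was far steadier: 13.06, 12.95 and 12.87 in KO starved, 13.74, 13.73 and 13.61 in KO fed, 13.44, 13.13 and 13.77 in WT starved and 13.44, 13.55 and 13.50 in WT fed livers. Orm1 fell with starvation in KO livers (-0.73, adjusted p = 0.0364), with a WT response of -0.05 and an interaction of -0.68 ± 0.20. Orm1, Orm2 and Orm3 are related genes, so some probes may be shared among them, and Orm3 had an interaction of -1.23 ± 0.52.

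The serum amyloid A genes, which code for lipoprotein-bound proteins of inflammation, had the widest swings. Saa2 read 6.12, 5.78 and 7.67 in KO starved, 9.79, 10.63 and 9.35 in KO fed, 9.19, 6.79 and 13.40 in WT starved and 6.11, 8.09 and 8.44 in WT fed livers. KO fed livers all lay above KO starved livers, and WT starved replicate 3 stood far above the other mice of its group. Its interaction was -5.65 ± 1.83. Leaving that mouse out gave -3.84 for Saa2, -2.90 for Saa1, -2.99 for Orm2 and -4.68 for Lcn2, and Lcn2 was then the lower of the pair Lcn2 and Saa2. Saa1 (-4.66 ± 1.66) and Saa3 (-1.97 ± 0.87) also had WT starved replicate 3 as the highest mouse, at 11.36 for Saa1 and 9.19 for Saa3. Saa1 and Saa2 are close copies and are not independent readings.

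Several other plasma proteins had negative interactions, smaller in size than those of Lcn2, Orm2, Saa1 and Saa2. Haptoglobin (Hp), which binds free haemoglobin, had -0.75 ± 0.34, the fibrinogen chain Fgg -0.54 ± 0.23, and the hyaluronan-binding inhibitor chain Itih3 -1.04 ± 0.47. Lrg1, a leucine-rich plasma glycoprotein, had -1.27 ± 0.59, and the iron hormone hepcidin (Hamp) -1.20 ± 0.56; both missed an unadjusted 0.05. C-reactive protein (Crp), which is little induced in mice, had -0.14 ± 0.22. Of the acute phase genes, only Lcn2 and Il1rn, the interleukin-1 receptor antagonist, passed the test in the WT response, and Orm1 and Il1rn in the KO response. Il1rn rose in both genotypes, by 1.00 in KO and 0.82 in WT.

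The list's median stayed negative in all 26 alternatives, from -1.14 to -0.41. Leaving out KO fed replicate F6 gave -0.41, leaving out KO starved replicate S5 -0.44 and leaving out WT starved replicate 3 -0.61. KO fed replicate F6 and WT starved replicate 3 were the highest of their groups for Lcn2, Orm2, Saa1 and Saa2. Blood cells that could carry some of these transcripts were also read: 0 of the 7 measured neutrophil markers had an unadjusted p under 0.05, and their array means were 5.28 to 5.45 in KO starved, 5.34 to 5.58 in KO fed, 5.23 to 5.60 in WT starved and 5.35 to 5.47 in WT fed livers. Among them S100a8 had an interaction of -0.20 ± 0.27 and S100a9 0.02 ± 0.18. Of 12 Kupffer cell and macrophage markers 0 reached that level either, with array means of 8.82 to 8.95 in KO starved, 8.82 to 8.87 in KO fed, 8.60 to 9.43 in WT starved and 8.78 to 9.26 in WT fed livers. In pieces of whole liver, fewer cells of a type and less RNA per cell cannot be told apart.

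**Figure D2:**
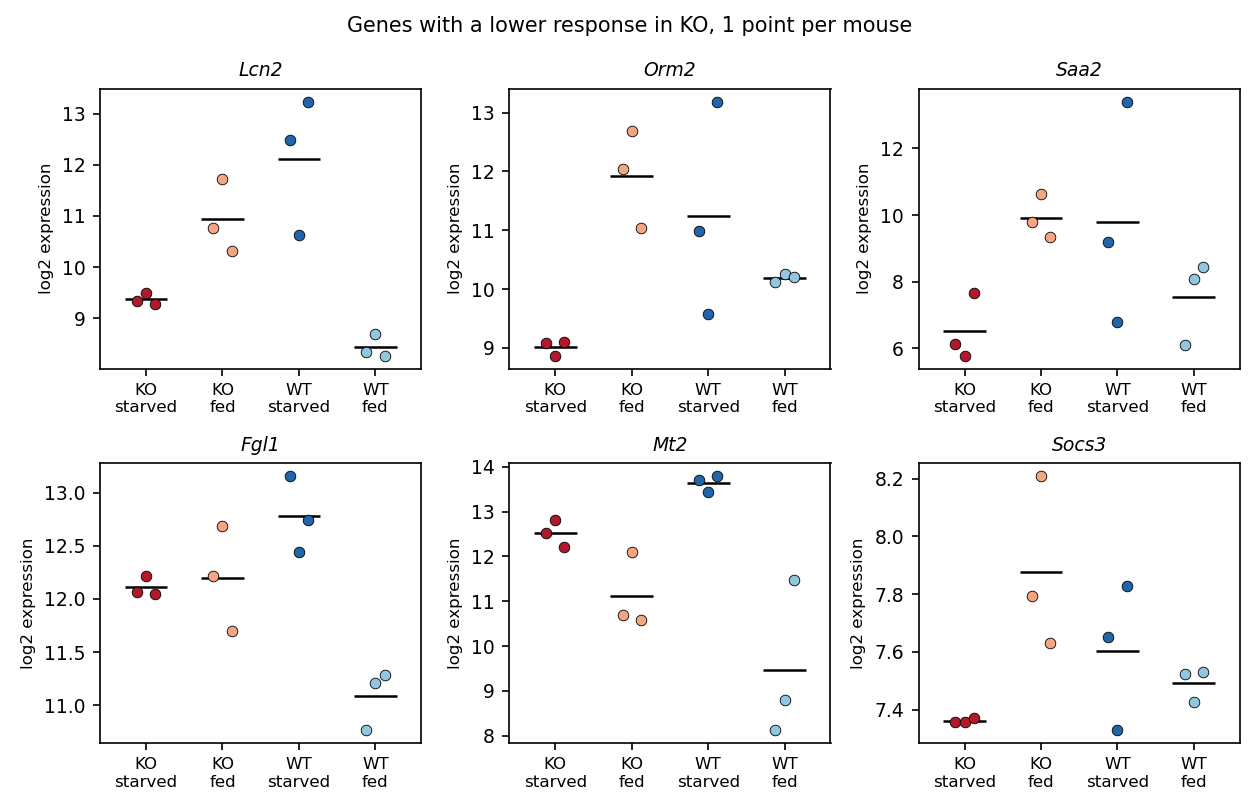
Log2 expression of Lcn2, Orm2, Saa2, Fgl1, Mt2 and Socs3 in each liver (1 point per mouse, 3 per group; the line is the group mean), with KO groups left of WT groups and starved left of fed. For Lcn2, KO starved livers lie below KO fed livers and WT starved livers above WT fed livers; for Saa2, 1 WT starved liver at 13.40 stands above all other mice.

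The promoters of Lcn2, Orm2 and Saa2 are shown because the first pair had the smallest unadjusted p of the list and Saa2 the most negative value with all mice. Each is the 250 bases before the gene's start in RefSeq (build GRCm38.p6), 5′ to 3′ on the gene's strand, with C/EBP matches in capitals. Lcn2 is at chr2:32387740-32387989 on the minus strand, Orm2 at chr4:63362199-63362448 on the plus strand and Saa2 at chr7:46751583-46751832 on the plus strand.
Lcn2: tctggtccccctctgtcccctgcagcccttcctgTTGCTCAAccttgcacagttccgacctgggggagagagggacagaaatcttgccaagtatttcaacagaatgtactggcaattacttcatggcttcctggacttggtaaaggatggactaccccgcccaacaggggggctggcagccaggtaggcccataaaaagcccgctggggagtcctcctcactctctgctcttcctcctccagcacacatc
Orm2: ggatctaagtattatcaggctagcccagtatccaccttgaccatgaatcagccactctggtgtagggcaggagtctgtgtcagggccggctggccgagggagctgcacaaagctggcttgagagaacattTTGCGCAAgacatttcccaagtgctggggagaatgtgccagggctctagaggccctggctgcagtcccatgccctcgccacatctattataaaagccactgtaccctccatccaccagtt
Saa2: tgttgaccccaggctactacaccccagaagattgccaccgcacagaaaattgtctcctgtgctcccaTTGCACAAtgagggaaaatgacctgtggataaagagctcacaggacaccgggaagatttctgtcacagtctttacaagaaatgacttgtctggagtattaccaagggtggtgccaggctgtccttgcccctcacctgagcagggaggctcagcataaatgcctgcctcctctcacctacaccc
The letters TTGCNNAA were searched for C/EBP on both strands, and each of the 3 promoters holds 1 match. Of the 30 acute phase genes 22 matched the promoter table by symbol, and 14 of them (63.6%) hold a C/EBP match, against 9.56% of 32851 mouse promoters of the same length. A listed gene counted if any of its promoters matched, whereas the mouse share counts each promoter singly. The shares of all 3 motifs are therefore not in like units. The STAT letters TTCNNNGAA were found in 5 of 22 (22.7%, against 7.02%), and an NF-kB motif in 3 of 22 (13.6%, against 1.41%); neither occurs in the 3 promoters printed. A match describes letters and is not a binding site, and these genes were listed for their known biology, so their motif content is no result of the arrays. Fgl1 and Orm1 had no entry in the table.

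Fgl1, a liver-secreted fibrinogen-like protein, had the second smallest unadjusted p of the lower responses. It read 12.07, 12.22 and 12.05 in KO starved, 12.22, 12.69 and 11.70 in KO fed, 13.16, 12.44 and 12.74 in WT starved and 10.77, 11.21 and 11.29 in WT fed livers. The KO groups overlapped and both lay above WT fed livers, while WT starved lay above WT fed without overlap. Fgl1 rose in WT livers by 1.69 (adjusted p = 0.00932), its KO response was -0.09 (adjusted p = 0.975), and the interaction was -1.78 ± 0.35.

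Signalling genes of the interleukin-6 and NF-kB pathways leaned the same way. Of 22, 0 passed, 5 had an unadjusted p under 0.05, all with a negative interaction, and 19 in all were negative, with a median of -0.36 that ran from -0.46 to -0.21 over the alternatives. Socs3, the feedback inhibitor of STAT3 signalling, read 7.36, 7.36 and 7.37 in KO starved, 7.80, 8.21 and 7.63 in KO fed, 7.65, 7.33 and 7.83 in WT starved and 7.52, 7.43 and 7.53 in WT fed livers. KO starved livers lay below KO fed livers, and the WT groups overlapped. The neutrophil chemokine Cxcl1 read 6.72, 6.65 and 6.53 in KO starved, 8.16, 8.63 and 7.62 in KO fed, 6.98, 6.68 and 8.67 in WT starved and 7.04, 7.48 and 7.26 in WT fed livers. The interactions were -0.63 ± 0.22 for Socs3, -1.68 ± 0.60 for Cxcl1 and -0.68 ± 0.24 for Nfkbiz, an NF-kB cofactor. Ccl2, a monocyte chemokine, had -0.55 ± 0.23 and the adhesion molecule Icam1 -0.42 ± 0.18. Stat3 itself had -0.94 ± 0.54 (unadjusted p = 0.11), and Cebpb, which codes for a C/EBP factor, had an interaction of the other sign, 0.49 ± 0.26 (unadjusted p = 0.0828).

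Of 31 complement and coagulation genes 0 passed, 25 were negative, and 2 had an unadjusted p under 0.05, both negative. Among them the complement protease Cfi had -0.89 ± 0.36. The list's median was -0.24. The 29 interferon-stimulated genes gave 0 at that level, and their median of -0.18 was positive in 1 of 26 alternatives.

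Metallothioneins, which bind zinc and copper and are induced by both glucocorticoids and interleukin-6, had negative interactions that did not pass the test. Mt2 read 12.53, 12.82 and 12.20 in KO starved, 10.69, 12.09 and 10.59 in KO fed, 13.70, 13.44 and 13.80 in WT starved and 8.12, 8.81 and 11.48 in WT fed livers. Starved livers exceeded fed livers in both genotypes without overlap, and KO starved livers lay below WT starved livers. Mt2 rose in WT livers by 4.17 (adjusted p = 0.0164), against a KO response of 1.40 (adjusted p = 0.602), an interaction of -2.78 ± 0.97. Over the alternatives it ran from -5.02 to -0.71, its smallest size with array weights. Mt1 read 11.45, 11.80 and 11.16 in KO starved, 9.94, 10.12 and 9.81 in KO fed, 12.55, 12.35 and 12.55 in WT starved and 8.52, 9.29 and 10.44 in WT fed livers. Its order of groups matched that of Mt2, with an interaction of -1.55 ± 0.51. Zinc transporters and the factor Mtf1 made up the rest of the list of 10, of which 9 were negative and only Mt1 and Mt2 had an unadjusted p under 0.05.

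Chaperones of the endoplasmic reticulum, which fold secreted proteins, had a median interaction of -0.38, with 21 of 24 negative, 0 called and 1 at an unadjusted p under 0.05. Within groups, their median level varied between mice with an SD of 0.33. The gene at that level was Pdia6, a disulfide isomerase, with 9.60, 9.71 and 9.44 in KO starved, 10.72, 10.90 and 10.38 in KO fed, 9.78, 9.96 and 10.13 in WT starved and 10.66, 10.24 and 10.47 in WT fed livers. Starved livers lay below fed livers in both genotypes. Pdia6 fell in KO livers (-1.08, adjusted p = 0.00968), against a WT response of -0.50 (adjusted p = 0.181), an interaction of -0.59 ± 0.23. Sdf2l1 and the stress-response factor Xbp1 also fell in KO livers (-1.93 and -0.58), with WT responses of -1.15 and -0.25 that did not pass and interactions of -0.78 ± 0.49 and -0.33 ± 0.17. The abundant chaperones varied more among fed mice, with -0.63 ± 0.44 for Hsp90b1 and -0.41 ± 0.46 for Hspa5. The list's median was -0.16 without KO fed replicate F6 or without WT starved replicate S4, and -0.69 without KO fed replicate F8. Over all alternatives it ran from -0.69 to -0.08.

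Proteasome subunits had small, mostly negative values: 34 of 42 were negative, the median was -0.14, and 0 had an unadjusted p under 0.05. Psmc3, an ATPase of the regulatory particle, rose in WT livers by 0.52 (adjusted p = 0.0395), with a KO response of 0.21 and an interaction of -0.31 ± 0.15. Psma1, a core subunit, had -0.32 ± 0.15. Among 23 ATF4 targets, genes of the amino acid stress response, 0 passed and 2 had an unadjusted p under 0.05. The glutathione-degrading enzyme Chac1 fell in KO livers (-0.64, adjusted p = 0.0389; interaction -0.54 ± 0.18), and asparagine synthetase (Asns) had an interaction of -1.52 ± 0.66 with WT starved livers at 6.28, 8.05 and 8.11.

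The genes of the higher direction with the smallest p had smaller interactions. Spc25, a kinetochore protein of dividing cells, read 6.37, 6.51 and 6.60 in KO starved, 6.36, 6.13 and 6.21 in KO fed, 5.91, 5.65 and 5.87 in WT starved and 6.27, 6.45 and 6.51 in WT fed livers. WT starved livers were lowest and overlapped none of the other groups, and KO starved livers lay just above KO fed livers. Every value lay below the median of its array, so the gene was low in level. It fell in WT livers (-0.60, adjusted p = 0.0319), its KO response was 0.26, and the interaction was 0.86 ± 0.16. Of the 30 cell cycle genes listed, 0 had an unadjusted p under 0.05, and their median was 0.08.

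Tsc22d3, a glucocorticoid-induced leucine zipper protein, read 9.37, 9.58 and 9.51 in KO starved, 8.93, 9.28 and 9.40 in KO fed, 8.76, 8.94 and 8.96 in WT starved and 9.58, 9.30 and 9.81 in WT fed livers. WT starved livers lay below WT fed livers, and the KO groups overlapped. Its interaction was 0.96 ± 0.22. Of 19 glucocorticoid targets listed, Tsc22d3 was the 1 gene with an unadjusted p under 0.05 in the higher direction, and Lcn2, Mt1 and Mt2 were the 3 in the lower.

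Nr0b2 (SHP), a repressor of the bile acid genes among the nuclear receptors, read 9.69, 9.86 and 9.76 in KO starved, 10.34, 10.27 and 10.20 in KO fed, 8.72, 8.34 and 9.03 in WT starved and 10.07, 10.07 and 9.98 in WT fed livers. Starved lay below fed in both genotypes, and the 4 groups did not overlap at all. It fell in WT livers (-1.35, adjusted p = 0.00257), its KO response was -0.51 (adjusted p = 0.178), and the interaction was 0.84 ± 0.21, between 0.41 and 1.07 over the alternatives. The 21 genes of bile acid synthesis and transport gave only Nr0b2 at an unadjusted p under 0.05, with a list median of 0.02.

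Glutathione transferases of the alpha class, detoxifying enzymes among the NRF2 targets, had positive interactions that did not pass the test. Gsta4 read 10.17, 10.06 and 10.03 in KO starved, 10.51, 10.42 and 10.52 in KO fed, 9.17, 9.08 and 9.58 in WT starved and 10.94, 10.22 and 11.30 in WT fed livers. Starved lay below fed in both genotypes, by more in WT. Gsta4 fell in WT livers (-1.54, adjusted p = 0.0094), against a KO response of -0.40, an interaction of 1.14 ± 0.32. Gsta1 (1.73 ± 0.60) and Gsta2 (1.63 ± 0.59) are near-identical copies that may share probes. With transketolase (Tkt, 0.51 ± 0.19) these were the 4 of 27 NRF2 targets at an unadjusted p under 0.05, all with a positive interaction, while the median of the list was 0.08. Conjugating enzymes outside that group included the sulfotransferase Sult1c2 (1.25 ± 0.45) and the transferase Gstt1 (0.64 ± 0.29), and the xenobiotic receptor Nr1i2 (PXR) had 0.58 ± 0.24.

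**Figure D3:**
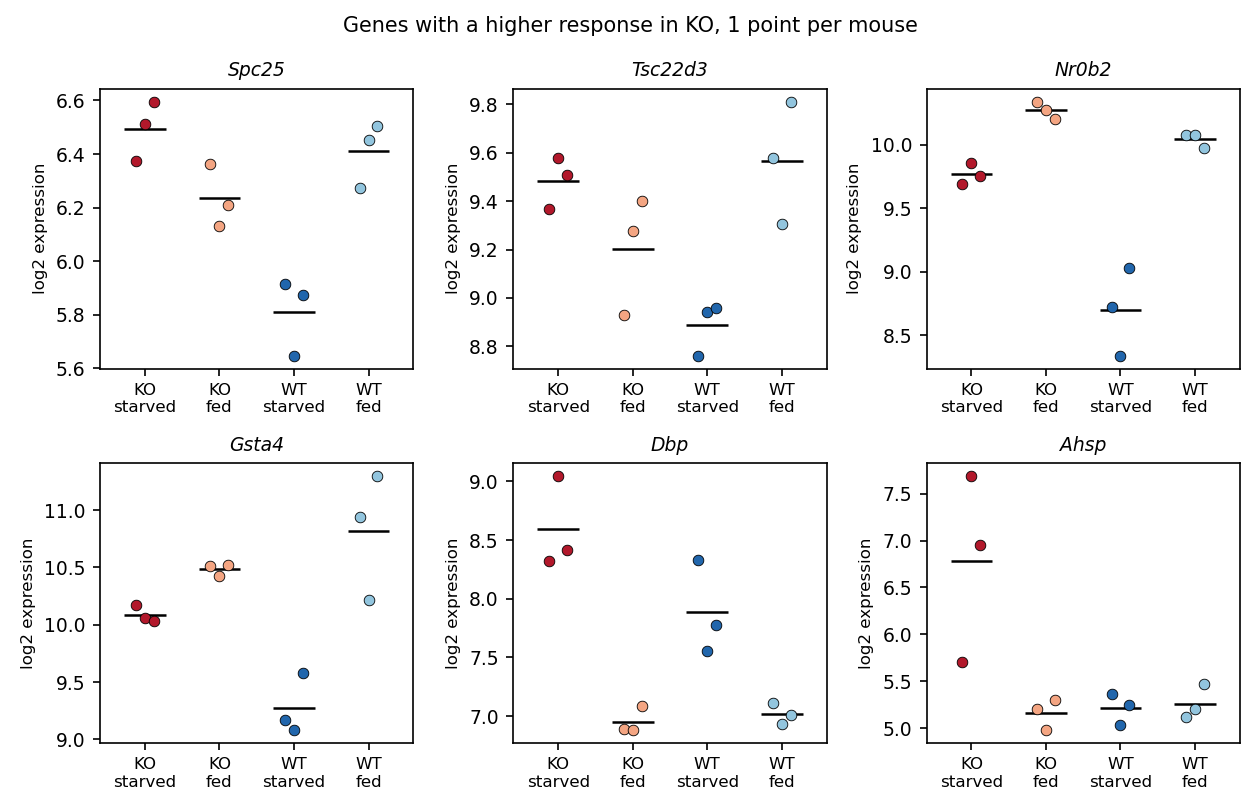
Log2 expression of Spc25, Tsc22d3, Nr0b2, Gsta4, Dbp and Ahsp in each liver (1 point per mouse, 3 per group; the line is the group mean), with KO groups left of WT groups and starved left of fed. The WT starved mean is the lowest of the 4 for Spc25, Tsc22d3, Nr0b2 and Gsta4, and KO starved livers are the highest for Ahsp, from 5.71 to 7.69.

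Of 22 clock genes, whose transcripts cycle over the day, 0 passed, 1 had a positive and 1 a negative interaction at an unadjusted p under 0.05, and the median was 0.20, between 0.01 and 0.46 over the alternatives. Their interactions were positive for 13 and negative for 9, between -0.83 and 1.13. Arntl (Bmal1), an activator of the clock, read 7.60, 7.54 and 7.69 in KO starved, 8.57, 8.98 and 8.41 in KO fed, 8.14, 8.37 and 8.27 in WT starved and 8.74, 8.35 and 8.74 in WT fed livers. It fell in KO livers (-1.05, adjusted p = 0.0107), against a WT response of -0.35 (adjusted p = 0.387), an interaction of -0.70 ± 0.22. Dbp, an output factor of the clock, read 8.32, 9.05 and 8.41 in KO starved, 6.89, 6.88 and 7.09 in KO fed, 8.33, 7.55 and 7.78 in WT starved and 7.11, 6.94 and 7.01 in WT fed livers. Starved lay above fed in both genotypes. Dbp rose in KO livers by 1.64 (adjusted p = 0.0051), against a WT response of 0.86 (adjusted p = 0.0779), an interaction of 0.78 ± 0.30. Its relatives Hlf (0.70 ± 0.37) and Tef (0.50 ± 0.29), the clock repressor Per3 (0.45 ± 0.25) and the clock-driven protease Usp2 (1.13 ± 0.53) had the sign of Dbp and did not reach an unadjusted 0.05. The hour at which each mouse was killed was not in the labels, and its part in these values was not tested.

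Of 25 genes expressed more in female than in male mouse liver, 19 were positive, the median was 0.34 (0.09 without WT fed replicate F1), and 1 had an unadjusted p under 0.05. That gene was Abcd2, a peroxisomal fatty acid transporter, with 7.97, 9.47 and 8.90 in KO starved, 7.32, 6.62 and 6.84 in KO fed, 8.37, 6.74 and 6.72 in WT starved and 7.26, 6.60 and 7.76 in WT fed livers. KO starved livers lay above KO fed livers, and the WT groups overlapped, with an interaction of 1.78 ± 0.68. Male-biased genes had 16 of 21 negative values, a median of -0.08 and 0 at that level, and omitting WT starved replicate 3 turned the median to 0.07.

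No gene of the core fasting programme passed the interaction test. Of 34 PPAR-alpha targets, 9 rose in KO and 7 in WT livers, none fell in either, and the median response was 1.14 in KO and 0.98 in WT, with a median interaction of 0.04. Over all 20719 genes 0.487% rose in KO and 0.661% in WT livers, and 0.536% and 0.748% fell. Cyp4a10, a fatty acid omega-hydroxylase, read 13.68, 13.87 and 13.89 in KO starved, 10.92, 11.16 and 10.75 in KO fed, 13.63, 13.75 and 13.21 in WT starved and 11.58, 10.71 and 10.79 in WT fed livers. Starved livers exceeded fed livers by about the same distance in both genotypes, with an interaction of 0.37 ± 0.31. Its relatives gave 0.45 ± 0.40 for Cyp4a31 and -1.06 ± 0.55 for Cyp4a14, for which the 95% interval, -2.27 to 0.16, allows a more than 2-fold smaller response in KO. The fasting hormone Fgf21 rose in both, by 1.22 in KO and 0.98 in WT (interaction 0.24 ± 0.24). Angptl4, an inhibitor of lipoprotein lipase, rose by 1.72 in KO and 1.61 in WT (interaction 0.11 ± 0.43).

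Within that list the peroxisomal thiolase Acaa1b (1.26 ± 0.45) and the fatty acid binding protein Fabp1 (0.54 ± 0.25) had an unadjusted p under 0.05, both with a positive interaction. For Fabp1, starved livers lay below fed livers in both genotypes, by less in KO. Its response was -0.19 in KO and -0.73 in WT, and neither passed the adjusted test. Acaa1b read 10.88, 11.07 and 11.10 in KO starved, 10.23, 9.92 and 9.75 in KO fed, 10.59, 10.48 and 9.12 in WT starved and 10.52, 10.30 and 9.996 in WT fed livers. Only the KO groups lay apart. The acyl-CoA thioesterases Acot3 (0.95 ± 0.64) and Acot4 (1.13 ± 0.61) did not reach that level.

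Intervals were wide for several classical genes of fasting. The carnitine transferase Cpt1a had an interaction of -0.05 with a 95% interval of -1.62 to 1.51, the pyruvate dehydrogenase kinase Pdk4 -0.19 (-1.60 to 1.21) and the gluconeogenic enzyme Pck1 0.32 (-1.20 to 1.84). For these 3 genes the intervals from 12 arrays did not exclude a more than 2-fold difference either way. Of 23 genes for ketone body formation and beta-oxidation in mitochondria 0 had an unadjusted p under 0.05, with median responses of 0.64 in KO and 0.64 in WT. The same count was 0 of 21 for gluconeogenesis and glycogen, 0 of 36 for amino acid catabolism and the urea cycle, and 0 of 19 for lipid droplets and lipolysis.

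Synthesis lists gave no gene at an unadjusted p under 0.05 either. Over all genes 0.536% fell in KO and 0.748% in WT livers. Of 25 cholesterol genes 11 fell in KO and 7 in WT livers, with median responses of -1.18 and -1.10 and a median interaction of -0.28 that ran from -1.002 to 0.28 over the alternatives. Fdps, which makes farnesyl diphosphate, fell in both (-2.17 in KO and -1.70 in WT; interaction -0.46 ± 0.49). Of 28 lipogenic genes 5 fell in KO, and 7 fell and 1 rose in WT livers, with a median interaction of 0.22. It was 0.02 with WT fed replicate F1 left out, 0.07 with WT starved replicate 3 left out, and between -0.10 and 0.43 over all alternatives. Thrsp, a lipogenic nuclear protein, fell in WT livers (-3.57, adjusted p = 0.017), with a KO response of -2.51 (adjusted p = 0.0821) and an interaction of 1.07 ± 0.84 whose sign turned within the 6 narrow arrays.

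Among metabolic genes outside these lists, hepatic lipase (Lipc) read 10.31, 10.43 and 10.29 in KO starved, 10.28, 10.39 and 10.38 in KO fed, 9.94, 9.55 and 9.96 in WT starved and 10.46, 10.13 and 10.34 in WT fed livers. Only WT starved livers stood apart, below the rest, with an interaction of 0.49 ± 0.18. Mfsd2a, a transporter of lysophospholipids, rose in both genotypes, by 3.84 in KO and 2.86 in WT (interaction 0.99 ± 0.45). Pdk1 (0.59 ± 0.23), Pfkfb3 (0.57 ± 0.24), which makes an activator of glycolysis, and the fasting factor Klf15 (0.41 ± 0.18) had positive interactions, and the growth factor receptor Egfr a negative one (-1.11 ± 0.48). Single genes of other lists at an unadjusted p under 0.05 were the hepcidin-regulating protease Tmprss6 (0.37 ± 0.14), the co-chaperone Fkbp4 (0.37 ± 0.16) and the immediate early gene Btg2 (-0.66 ± 0.28).

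The lists of chaperone-mediated autophagy, macroautophagy and the lysosome had medians near 0, with members on both sides. Of 18 chaperone-mediated autophagy genes 9 were positive and 9 negative, between -0.49 and 0.57, with a median of 0.00 and 0 at an unadjusted p under 0.05. The lowest was the cytosolic chaperone Hsp90aa1, -0.49 ± 0.30, and the interaction of the substrate chaperone Hspa8 rounded to 0 (95% interval -0.55 to 0.54). Of 40 macroautophagy genes 0 reached that level (median 0.03; 2 rose in each genotype), and of 53 lysosomal genes 1 did (median -0.03). That gene was Hexa, a subunit of beta-hexosaminidase, with 9.83, 9.74 and 9.81 in KO starved, 9.55, 9.38 and 9.39 in KO fed, 9.78, 9.56 and 9.15 in WT starved and 9.63, 9.80 and 9.69 in WT fed livers. KO starved lay above KO fed, the WT groups overlapped, and the interaction was 0.57 ± 0.20. Flcn (folliculin), which acts on lysosomal nutrient signalling and is in none of these lists, read 7.67, 7.73 and 7.81 in KO starved, 7.24, 7.43 and 7.15 in KO fed, 7.39, 7.52 and 7.12 in WT starved and 7.45, 7.49 and 7.69 in WT fed livers, with an interaction of 0.66 ± 0.18.

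Several of the remaining genes with the smallest p were low in level. Kcnt2, a sodium-activated potassium channel, read 4.92, 4.86 and 4.92 in KO starved, 7.55, 8.49 and 7.12 in KO fed, 6.07, 4.92 and 5.29 in WT starved and 5.43, 6.58 and 5.29 in WT fed livers. KO fed livers stood above all others. It fell in KO livers (-2.82, adjusted p = 0.00873), with an interaction of -2.48 ± 0.57. Ccr3, a chemokine receptor of eosinophils, was likewise highest on average in KO fed livers. It read 5.16 to 5.52 in KO starved, 6.00 to 7.27 in KO fed, 5.65 to 6.41 in WT starved and 5.25 to 5.95 in WT fed livers (interaction -1.71 ± 0.44). Sebox, a homeobox factor, fell in KO livers (-0.72, interaction -0.62 ± 0.17).

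Id2, an inhibitor of helix-loop-helix factors and high in level, read 11.99, 12.05 and 12.10 in KO starved, 12.54, 12.83 and 12.43 in KO fed, 12.89, 12.43 and 12.60 in WT starved and 12.34, 12.40 and 12.39 in WT fed livers. Starved lay below fed in KO and above fed in WT, as for Lcn2, with an interaction of -0.82 ± 0.19. The same order without overlap held for Bbs4, a protein of the primary cilium (-1.003 ± 0.23), and for Slc37a1, a sugar phosphate transporter (-0.66 ± 0.16). Arv1, a lipid transport protein of the endoplasmic reticulum, rose in WT livers by 0.78 (adjusted p = 0.00834), against 0.10 in KO (interaction -0.67 ± 0.15). Olig1 (-0.61 ± 0.16) and the protease inhibitor Serpina3c (-1.10 ± 0.29) completed the 12 lower responses with the smallest p. Of the genes called in KO that had the smallest interaction p, Golph3l, a Golgi protein (-0.72 ± 0.20), and the crystallin Crybb3 (-0.65 ± 0.18) fell in KO livers (-0.87 and -0.71), with WT responses of -0.14 and -0.06. The other higher responses were Ccng2, a FOXO-induced cyclin (0.51 ± 0.13), the adhesion molecule Ncam2 (0.91 ± 0.24), the chromatin reader Ing2 (0.55 ± 0.16), the potassium channel Kcnk10 (0.79 ± 0.23), Cryl1 (0.74 ± 0.21), Tmem100 (0.76 ± 0.22) and the peptidase Pgpep1 (0.61 ± 0.18). Tmem100, Kcnk10, Ncam2 and Olig1 were low in level, with group means of 4.64 to 5.66, 5.73 to 6.46, 5.98 to 6.91 and 6.22 to 6.85.

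**Figure D4:**
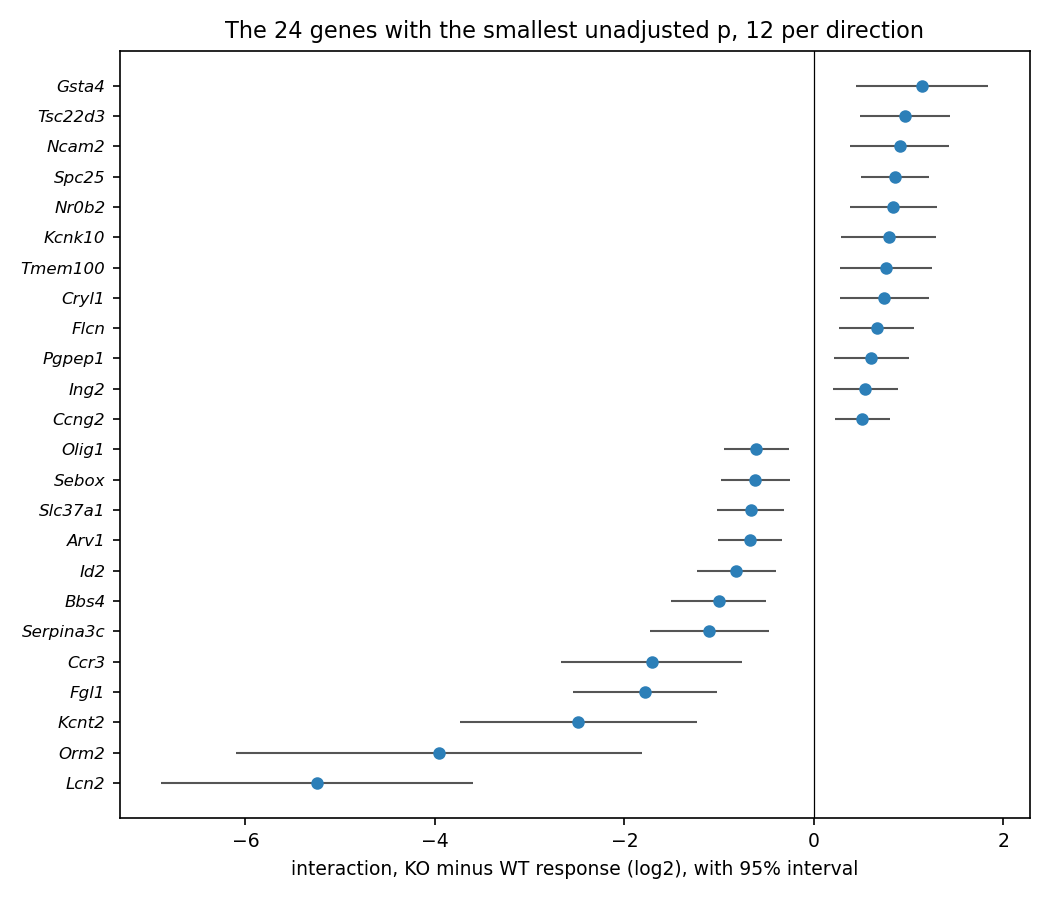
Interaction (horizontal axis, log2 KO response minus WT response) with its unadjusted 95% interval for the 12 genes of each direction with the smallest unadjusted p. Lcn2 at -5.24 and Orm2 at -3.95 are lowest, and the higher responses reach 1.14 for Gsta4.

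Of the matrix and stellate cell genes, periostin (Postn), a matrix protein of fibrosis, read 7.37, 7.58 and 7.40 in KO starved, 9.50, 9.25 and 9.11 in KO fed, 7.04, 6.45 and 7.73 in WT starved and 7.26, 7.92 and 7.93 in WT fed livers. KO fed livers stood above all others. Postn fell in KO livers (-1.83, adjusted p = 0.0115), with a WT response of -0.63 and an interaction of -1.21 ± 0.40. Collagen Col3a1 had -0.43 ± 0.18 and the receptor Pdgfrb -0.45 ± 0.14. Of 11 stellate cell markers 2 had an unadjusted p under 0.05, these same Col3a1 and Pdgfrb, while 5 were positive, up to 0.47, and the median of -0.04 turned sign in 9 of 26 alternatives. The list's array means were 8.34 to 8.46 in KO starved, 8.42 to 8.66 in KO fed, 8.23 to 8.49 in WT starved and 8.48 to 8.51 in WT fed livers. Efemp1, another matrix protein, fell in KO livers (-1.20, adjusted p = 0.00195; interaction -0.64 ± 0.17).

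Red blood cell markers had the highest median of all lists, 0.63, with 8 of 8 positive, 0 called and 3 at an unadjusted p under 0.05, all with a positive interaction. Ahsp, the chaperone of alpha globin, read 5.71, 7.69 and 6.95 in KO starved, 5.20, 4.98 and 5.30 in KO fed, 5.37, 5.04 and 5.25 in WT starved and 5.12, 5.20 and 5.47 in WT fed livers. KO starved livers alone stood out, with an interaction of 1.66 ± 0.52. Alas2, the haem synthesis enzyme of red cell precursors, fell in both genotypes (-0.96 in KO and -1.65 in WT; interaction 0.70 ± 0.25). Rhag had 0.42 ± 0.18 and Car1 1.25 ± 0.62. The list's array means were 8.21 to 8.82 in KO starved, 8.13 to 8.53 in KO fed, 7.56 to 8.16 in WT starved and 8.39 to 8.53 in WT fed livers, so WT starved livers were lowest, overlapping KO fed livers in part. The median was 0.00 within the 6 narrow arrays. The part of blood left in the tissue in the other results was not tested.

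Ribosomal protein genes, 47 of 48 positive with a median of 0.20 and 0 at an unadjusted p under 0.05, had a median that moved with single arrays: -0.01 when KO fed replicate F6 was left out and 0.02 when KO starved replicate S5 was. Within groups, their median level varied between mice with an SD of 0.38. Of the 53 lists, 9 kept the sign of their median in every alternative run. They were the acute phase, interleukin-6 and NF-kB, metallothionein, endoplasmic reticulum chaperone, complement and proteasome lists, all negative, and the clock, female-biased and red blood cell lists, all positive. Alternatives share most of their arrays, so a kept sign is no test.

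**Figure D5:**
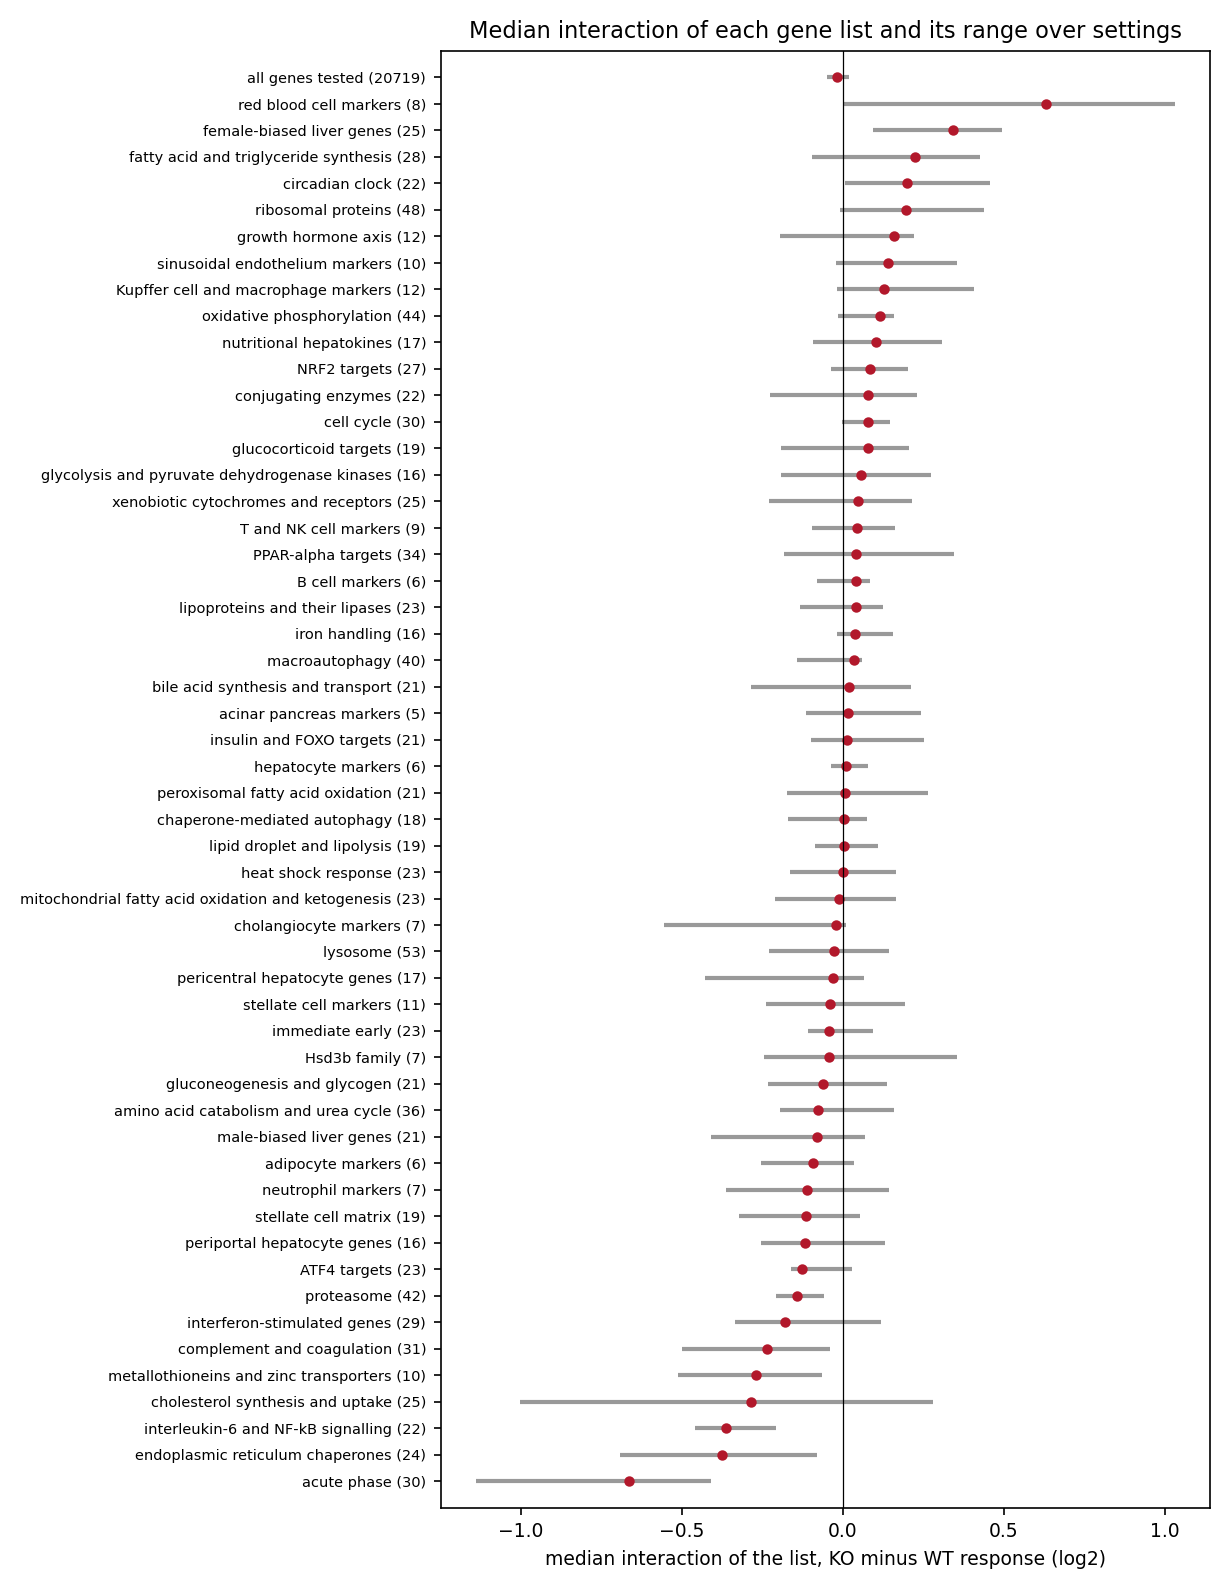
Median interaction of each gene or marker list (points; horizontal axis, log2 KO response minus WT response; number of measured genes in brackets) with the lowest and highest median over the alternative settings (grey lines). The acute phase list lies lowest at -0.67 and the red blood cell list highest at 0.63, and most metabolic lists span 0.

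Several of the largest responses were called in both genotypes. The pseudogene Serpina4-ps1 fell in both (-4.07 in KO and -3.64 in WT), as did Hsd3b5, a steroid dehydrogenase of male liver (-3.99 in KO and -3.75 in WT), with interactions of -0.43 ± 0.81 and -0.24 ± 0.74. Cyp17a1, a steroid hydroxylase, rose by 3.65 in KO and 2.85 in WT, and the monocarboxylate transporter Slc16a5 by 3.53 in KO and 2.82 in WT. The 95% intervals of all 4 reached beyond 2-fold on at least 1 side, so a difference of that size was not excluded on that side.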

How the data were processed

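Liver RNA of 12 mice was hybridised to 12 one-colour arrays, and the deposited table holds log2 values that were normalised by the authors with RMA, per the submitters' processing notes, which also name oligo and limma. Array model, annotation and genome build are not given in the sources used here. Of 28944 rows, 5132 without a symbol were left out, and of 1683 symbols with several rows the row with the highest mean was kept, which left 20719 genes. Group means were fitted with limma 3.58.1 in R 4.3.3 (lmFit and eBayes), with Benjamini-Hochberg adjustment over all genes and a threshold of 0.05. The script was tested on simulated data. Each array is 1 mouse and, with 3 mice per group, their number limits the precision.

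Named genes were the 12 with the smallest unadjusted interaction p per direction, up to 3 genes under 0.05 per list, and, among genes called in either response, the 6 largest and the 6 with the smallest interaction p. Predicted and segment genes were left out, and other list members were named where their list is described. Members and lists were chosen with earlier results of these data known. Alternatives covered the choice of row, normalisation, filters, variance settings, array weights, array spread, a replicate block and the omission of each mouse. The split of arrays at the median spread, the covariate for spread and the fits within wide and narrow arrays were added after seeing the data. Promoters came from RefSeq (GRCm38.p6). Figures were drawn with Python 3.11.15 and matplotlib 3.10.9. Some genes are not reported here, although they stayed in the fits and list counts.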

Additional observations from a re-analysis of the deposited data

How the results depend on the processing

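Interaction calls numbered 106 with array weights, 12 within the 6 narrow arrays, 1 within the 6 wide arrays and 0 to 1 when single mice were left out, against 0 in the fit reported and in all other settings. Both starved groups had 1 narrow array (WT starved replicate 3 and KO starved replicate S5) and both fed groups 1 wide array (WT fed replicate F1 and KO fed replicate F6), each assumed to vary like the others, so calls within these sets rest on single mice. The largest gap in spread sets WT starved replicate 3 alone apart, so that setting gave the same values as leaving this mouse out. Genes at an unadjusted interaction p under 0.05 numbered 185 above the median level, 3393 with array weights, 743, 1196 and 1127 with array spread as a term at the largest gap, as a term at the median and as a covariate, 1597 within wide and 1566 within narrow arrays, and 310 to 829 with a mouse left out. KO response calls were 7639 with array weights, 344, 881 and 603 with the 3 spread settings, and 45 to 344 with a mouse left out. WT response calls were 5600, then 659, 1225 and 1132, then 537 within wide and 88 within narrow arrays, and 64 to 659 with a mouse left out. KO minus WT calls in starved mice were 13 with array weights, 1 with spread at the largest gap, 1 within wide and 19 within narrow arrays, and 0 to 3 with a mouse left out; in fed mice they were 1267 with array weights, 4 and 3 with spread at the median and as a covariate, and 1 within wide arrays. Pearson r of the responses was 0.568 within wide and 0.406 within narrow arrays, and 0.617 to 0.768 with a mouse left out. The same-sign share of WT-called genes was 91.9%, 93.3% and 90.9% with array weights, within wide and within narrow arrays, and 95.3% to 98.7% with a mouse left out; that of KO-called genes was 89.3%, 94.2% and 93.5%, and 96.3% to 100%. The cause of these shifts was not tested. The replicate block by title number gave 0 interaction calls, and it put WT starved replicates S3 and 3 in the same block. Title numbers repeat only in part across groups and were taken to mark different mice, so they were not used as pairs. Starved and fed mice of the same number had deviation correlations of -0.172 in WT and of 0.454 and 0.532 in KO. Whether they were paired was not tested. Of 115 genes followed over the alternatives, 12 turned sign in some alternative. With a mouse left out, values with both signs were found for Serpina4-ps1 (-0.92 to 0.27), Hsd3b5 (-0.76 to 0.45), Cpt1a (-0.55 to 0.39), Pdk4 (-0.70 to 0.47), Pck1 (-0.046 to 0.88), Angptl4 (-0.16 to 0.35), Fdps (-0.74 to 0.081), Hspa8 (-0.18 to 0.14) and S100a9 (-0.092 to 0.11). The sign also turned with array weights for Hsd3b5 (0.16), Angptl4 (-0.11) and Crp (0.0095), and with spread at the largest gap for Serpina4-ps1 (0.27), Hsd3b5 (0.45), Angptl4 (-0.16) and Fdps (0.081). Within wide arrays it turned for Serpina4-ps1 (0.75), Pck1 (-0.13) and Fdps (0.16), and within narrow arrays for Thrsp (-0.69), Hspa5 (0.0021), Cpt1a (0.48), Pdk4 (0.47), Hspa8 (0.29) and S100a9 (-0.27). Hspa8 was 0.041 with the mean of all rows, 0.026 with median centring and 0.039 with cyclic loess. None of these genes had an interaction past the threshold in the fit reported.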
